A study of Rattus norvegicus with 30 samples.

Results

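The comparison described here asks in which genes the response to a tryptophan-deficient diet differed between the kidney and the lung of 5-week-old rats. It rests on 20 of the 30 arrays of the series, 5 in each of 4 groups, and the arrays were chosen from their labels for organ, age and diet, with no measured value used. The groups were whole kidney and whole lung of wild-type Sprague-Dawley rats on the normal diet, and the same organs of wild-type Sprague-Dawley rats that had been short of tryptophan from birth to 4 wk. All 4 groups were collected at 5 wk, so the deficient rats were sampled after the stated end of the restriction. The labels give neither the sex or litter of the animals nor their food in the last week. The other 10 arrays hold kidney and lung of 1-week-old rats on the normal diet, and they entered only the estimate of the spread and the filter on dim genes.

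Tryptophan is an essential amino acid, needed for protein synthesis and used to make serotonin and, through the kynurenine pathway, NAD. Kidney and lung both go on growing and maturing after birth: the kidney completes its tubules and their transporters, and the lung divides its air spaces and extends its capillary bed. An early nutritional restriction therefore meets organs that share a programme of cell division and matrix deposition but differ in nearly all of their specialised cells.

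For each gene the diet difference of an organ is the mean log2(signal + 16) of its deficient arrays minus that of its control arrays. The organ difference is the kidney's diet difference minus the lung's, and it is positive where the level under deficiency, set against the control diet, was higher in kidney than in lung. A gene was called at a Benjamini-Hochberg adjusted p below 0.05 in limma's moderated test, and fold changes are on the scale of signal + 16, which understates the change of dim genes. Of 14217 genes, 10150 were bright enough in both organs to be tested for the organ difference.

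Each array's median signal lay between 148 and 192, and arrays of a group correlated at 0.98 to 0.989. The organs carried their defining transcripts: Slc34a1, the phosphate transporter of the proximal tubule, read 13652 to 17611 in the 10 kidneys and 40.5 to 80.0 in the 10 lungs, whereas Sftpc, a surfactant protein of alveolar type 2 cells, read 13346 to 19136 in the lungs and 72.6 to 107 in the kidneys. A few libraries stood apart. In deficient lung 3 the liver transcript Alb read 15033, against 56.4 to 149 in the control lungs, and in deficient lung 4 the skeletal muscle transcript Acta1 read 3898, against 145 to 381. Alb also read 2269 in deficient lung 4, and 1817 and 1382 in deficient kidneys 3 and 4, against 64.5 to 361 in the control kidneys. Control lung 3 stood apart too. Its mean log2 value was 9.27 for the cardiac muscle list, against 7.86 to 8.20 in the other 4 control lungs. For the fat list it was 8.82, against 7.46 to 7.91. In deficient rats numbered 5 the mean of the MHC class II list was low in both organs, at 8.35 in kidney against 9.24 to 9.56 in the other 4 and at 9.52 in lung against 10.46 to 10.59. With deficient rats 3 and 4 left out, 368 organ differences passed in place of the 779 given below, and 28 of the 84 called genes named below were lost, at adjusted p-values of 0.0528 to 0.265. They were Agt, Mbl1, Postn, Acot1, Isg15, Tro, Cdt1, Zfp367, Depdc1, Mcm3, Ung, Igf2bp3, Loxl1, Myl9, Myh11, Cspg4, Nos3, Irf7, Ifitm3, RT1-Da, Cd74, Lck, Gata2, Ace, Tfcp2l1, Sult1a1, Klf6 and Hadhb. Fewer deficient arrays also make a weaker test, and calls lost for that reason were not told apart. Among the lost genes the organ difference went from -1.98 to -2.06 for Agt and from 1.13 to 1.10 for Isg15. It went from -0.70 to -0.47 for Tro and from -0.75 to -0.52 for Sult1a1. What the liver, muscle and fat transcripts contribute to any organ difference was not tested.

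The diet effect was larger in kidney than in lung by count. In kidney 2342 of the 10150 genes (23.1%) passed the test, 1566 higher (15.4%) and 776 lower (7.65%) under deficiency, and in lung 1356 (13.4%) passed, 762 higher (7.51%) and 594 lower (5.85%). The organ difference itself passed in 779 genes (7.67%), 482 with a positive value (4.75%) and 297 with a negative one (2.93%), so 61.9% were positive. That split moved with the scaling: with each array centred on its median, 34.9% of 769 calls were positive. Across the 10150 genes the 2 diet differences correlated at a Pearson r of 0.45 and a Spearman rho of 0.36, a description over genes that share arrays and are not independent. In whole organs, fewer cells of a type and less RNA per cell cannot be told apart.

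Sorted by which organ's own diet difference passed, the 779 genes fell into 5 patterns. In 458 (58.8%) the diet difference passed in kidney and not in lung, with a median size of 0.40 on the log2 scale in kidney and 0.09 in lung. In 190 (24.4%) it passed in lung and not in kidney, with median sizes of 0.36 in lung and 0.10 in kidney. In 61 (7.83%) it passed in both organs in opposite directions, 39 of them higher in kidney and lower in lung. In 26 (3.34%) it passed in both organs in the same direction but by unequal amounts, the kidney's being the larger in 20. In the last 44 (5.65%) it passed in neither organ alone. The plot of the diet difference in kidney against that in lung shows these patterns as arms and a diagonal.

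**Figure D1:**
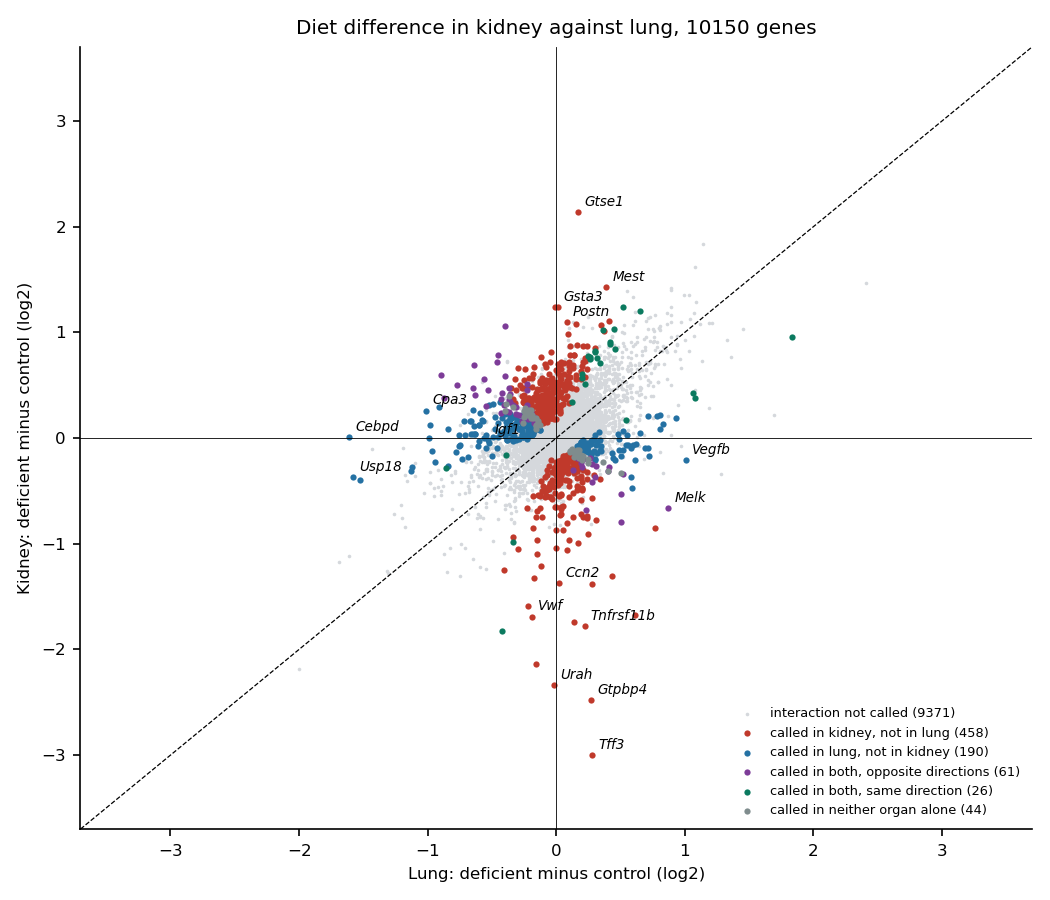
Diet difference (mean log2(signal + 16), deficient minus control, 5 arrays a group) in lung on the horizontal axis and in kidney on the vertical axis for the 10150 genes tested in both organs, coloured by pattern; the dashed line marks equal differences. Tff3 and Gtpbp4 lie far below the line at a lung difference near 0, Cebpd lies to the left at a kidney difference near 0, and Melk and Vegfb lie on the lower right.

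Many diet effects could be assigned neither to 1 organ nor to both. Of the 2342 genes that passed in kidney, 545 (23.3%) also passed the organ difference, 507 (21.6%) passed in lung in the same direction with no call for the organ difference, and 1290 (55.1%) passed in kidney with neither. Of the 1356 genes that passed in lung, 277 (20.4%) passed the organ difference and 507 (37.4%) were those shared genes. The 533 genes that passed in both organs in the same direction were 22.8% of the kidney's and 39.3% of the lung's.

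The largest organ differences among the tested genes were negative and came from genes that fell in kidney. Tff3, a secreted trefoil peptide of mucosal surfaces, read 9707, 12763, 13224, 14048 and 9304 in the control kidneys and 2827, 1420.3, 1178, 954 and 1386 in the deficient ones. It thus fell 7.99-fold in kidney with no overlap of the arrays. In kidney the diets did not overlap, in either direction, for 1407 of the 10150 genes tested. In lung Tff3 lay near the dim end of the array, at 112 ± 12.6 on the control diet and 139 ± 15.6 under deficiency (SD, n = 5 each), and its organ difference was -3.27 ± 0.27 (SE, adjusted p = 1.17e-08).

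Gtpbp4, a nucleolar GTPase of ribosome assembly, read 2649.5, 4943, 3123, 4926 and 2707 in the control kidneys and 680.1, 531, 644, 799 and 494 in the deficient ones. The kidney groups did not overlap, and the kidney's level fell 5.57-fold, down to the level of the lung, where it read 487 ± 99.7 and 586 ± 77.7 in the 2 diets (SD, n = 5 each). Its organ difference was -2.75 ± 0.31 (adjusted p = 2.35e-06).

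Prep, a prolyl endopeptidase that cuts small peptides, had the smallest adjusted p of the genes tested. It read 3338, 2571, 2567, 3957 and 2546 in the control kidneys and 986, 812, 847, 873 and 860.0 in the deficient ones, a 3.33-fold fall. The lungs read 570.2 ± 27.9 and 630.0 ± 63.4 (SD, n = 5 each), overlapping between diets, and the organ difference was -1.87 ± 0.13 (adjusted p = 6.30e-10).

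Vwf, the von Willebrand factor made by endothelial cells, read 406, 362, 540.1, 308 and 384 in the control kidneys and 123, 93.8, 109, 99.4 and 133 in the deficient ones. The fall was 3.23-fold with no overlap, while the lungs, where Vwf is bright, read 4488 ± 159.8 and 3955 ± 507 (SD, n = 5 each) and overlapped. For Vwf the organ difference was -1.50 ± 0.17 (adjusted p = 1.44e-06).

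Ccn2, a matrix-associated growth factor that also behaves as an immediate early gene, read 5290.2, 3302, 4898, 4520.0 and 5747 in the control kidneys and 1639.9, 2032, 1691, 1843 and 1787 in the deficient ones. Its 2.59-fold fall in kidney had no counterpart in lung, where the means were 8201 ± 1238 and 8266 ± 501 (SD, n = 5 each). The organ difference of Ccn2 was -1.40 ± 0.18 (adjusted p = 1.37e-05).

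Other genes that fell in kidney and did not pass in lung had varied roles. Tnfrsf11b, the decoy receptor osteoprotegerin, fell 3.43-fold in kidney, from 793 ± 248 to 217 ± 69.3, with lung means of 730.1 ± 39.8 and 854 ± 69.1 (SD, n = 5 each) and an organ difference of -2.00 ± 0.28. Akr1c13, an aldo-keto reductase, fell 3.18-fold in kidney, and its lung means of 163 and 261 gave a diet difference of 0.61 that missed the threshold (adjusted p = 0.0515). Urah, an enzyme of urate breakdown, read 174 ± 71.9 in control kidneys and 20.2 ± 9.98 in deficient ones, which were all below the 40th percentile of their array, so no fold is given. In lung Urah read 503 and 497, and its organ difference was -2.32 ± 0.37 (adjusted p = 1.75e-04). Prep, Gtpbp4, Tff3, Tnfrsf11b, Akr1c13, Urah, Vwf and Ccn2 each kept their call when any 1 of the 20 arrays was left out and when deficient rats 3 and 4 were left out.

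Among genes that passed in kidney alone, 279 rose and 179 fell. Gtse1, a protein of the G2 and S phases that binds p53, had the largest positive organ difference, 1.97 ± 0.36 (adjusted p = 8.31e-04). It read 22.8, 15.8, 12.8, 21.9 and 22.3 in the control kidneys, below the 40th percentile of every array, and 129, 38.2, 237, 175 and 212 in the deficient ones. The lungs held it at 222 ± 42.4 and 254 ± 58.8 (SD, n = 5 each) in the 2 diets, and 3 of the 5 deficient kidneys stayed below every lung array.

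Mest, an imprinted gene that is high in growing fetal tissue, read 87.4, 141, 156, 125 and 76.9 in the control kidneys and 312, 400.0, 378, 329 and 269 in the deficient ones. It rose 2.70-fold in kidney without overlap and stood at 839 ± 41.9 and 1124 ± 228 (SD, n = 5 each) in lung, where the difference of 0.39 missed the threshold (adjusted p = 0.0577). Mest had an organ difference of 1.04 ± 0.20 (adjusted p = 0.00131).

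Angpt2, a ligand of the endothelial receptor Tie2, rose 2.36-fold in kidney, from 388 ± 109 to 925 ± 170.5, with lung means of 407 and 406 (SD, n = 5 each), and its organ difference was 1.24 ± 0.21 (adjusted p = 2.88e-04). Gsta3, a glutathione transferase, also rose 2.36-fold in kidney, from 534 ± 86.9 to 1289 ± 226, with lung means of 127 in both diets, and its organ difference was 1.23 ± 0.17 (adjusted p = 2.06e-05). The kidney arrays of the 2 diets did not overlap for either gene. Postn, a matrix protein of developing connective tissue, rose in kidney from 76.4 ± 30.9 to 187 ± 81.0 beside lung means of 7401 and 7844, with an organ difference of 1.02 ± 0.29 (adjusted p = 0.0283). The call for Postn was lost without control kidney 1 (adjusted p = 0.0598), control kidney 3 (0.0567), deficient kidney 3 (0.0607) or deficient kidney 5 (0.0580) and with differences taken within same-numbered animals (0.0868), and its kidney groups overlapped.

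Among genes that passed in lung alone, the largest organ difference was that of Cebpd, a transcription factor of the acute-phase and glucocorticoid response. It read 2879.5, 1896, 2707, 2657 and 3085 in the control lungs and 1092, 678, 664, 753 and 1156 in the deficient ones, a 3.05-fold fall without overlap. In lung the diets did not overlap, in either direction, for 1016 of the 10150 genes. The kidneys read 266 ± 29.3 and 268 ± 40.6 (SD, n = 5 each), and the organ difference was 1.62 ± 0.24 (adjusted p = 6.11e-05).

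Fmo1, a flavin-containing monooxygenase of drug metabolism, read 2865, 2934, 2695, 2349 and 3063 in the control lungs and 1359, 1140.1, 1511, 1674 and 1411 in the deficient ones. It fell 1.96-fold in lung and stayed bright in kidney, at 7707 ± 457 and 7110.0 ± 479 (SD, n = 5 each), where its difference of -0.12 did not pass. Fmo1 had an organ difference of 0.85 ± 0.13 (adjusted p = 1.64e-04).

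Cpa3, a carboxypeptidase of mast cell granules, read 871, 1167, 1227, 969.7 and 685 in the control lungs and 330.0, 412, 366, 561 and 833 in the deficient ones. Deficient lung 5 lay inside the control range, and the other 4 lay below it. The organ difference of Cpa3 was 1.27 ± 0.29 (adjusted p = 0.00641), with kidney means of 82.6 and 103 near the dim end of the array.

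Fewer genes rose in lung alone, 71 of the 190. Vegfb, a growth factor of the VEGF family, read 241, 376, 317, 322 and 257 in the control lungs and 524, 557, 936, 501 and 649 in the deficient ones. The 2.01-fold rise in lung stood beside kidney means of 1723 ± 143 and 1485 ± 103 (SD, n = 5 each), whose difference of -0.21 did not pass, and the organ difference was -1.22 ± 0.18 (adjusted p = 6.78e-05). Kif11, the motor protein that separates spindle poles, rose 1.63-fold in lung, from 333 ± 20.5 to 554 ± 58.4, with kidney means of 1443 and 1355 and an organ difference of -0.80 ± 0.12 (adjusted p = 1.50e-04). Another probe set of Kif11 gave -0.55, which did not pass (adjusted p = 0.196).

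Signals of 12 genes across the 20 arrays are drawn on a linear scale, so that organ and diet can be read side by side.

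**Figure D2:**
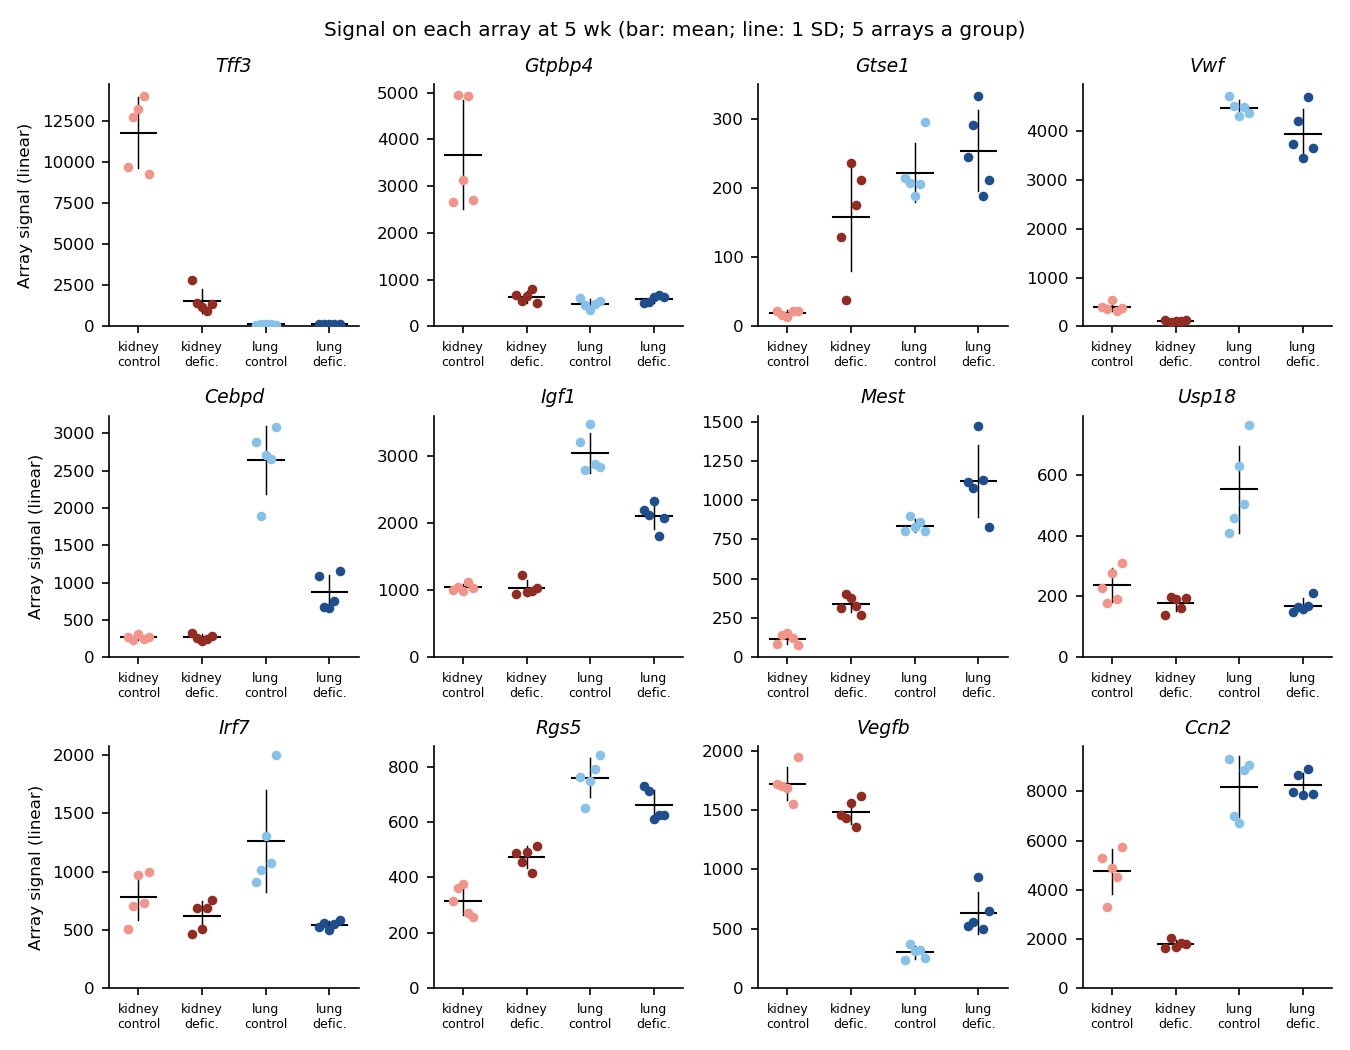
Signal (MAS5 units, linear axis from 0) of 12 genes in each of the 20 arrays, by organ and diet; dots are arrays, the bar is the mean of 5 and the line 1 SD. Tff3, Gtpbp4, Vwf and Ccn2 drop in the deficient kidneys, Cebpd, Igf1, Usp18 and Irf7 drop in the deficient lungs, and Gtse1, Mest and Rgs5 rise in the deficient kidneys.

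The 61 genes that moved in opposite directions are described by their largest organ differences of each sign. Slc39a4, a zinc importer, read 177, 153, 215, 239 and 163 in the control kidneys and 292, 332, 277, 323 and 337 in the deficient ones. In lung it read 1915, 1875, 1632, 1879.6 and 1669.7 on the control diet and 1084, 981, 1280.4, 1112 and 1285 under deficiency. Neither organ's groups overlapped: Slc39a4 rose 1.61-fold in kidney and fell 1.56-fold in lung, with an organ difference of 1.33 ± 0.16 (adjusted p = 5.02e-06).

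Adgrv1, an adhesion G protein-coupled receptor, rose 2.08-fold in kidney, from 829 ± 144 to 1729 ± 145, and fell 1.32-fold in lung, from 429 ± 55.1 to 323 ± 55.5 (SD, n = 5 each). Atp2a3, a calcium pump of the endoplasmic reticulum, rose 1.30-fold in kidney and fell 1.82-fold in lung, from 2384 ± 239 to 1296 ± 60.9. Itgb6, an epithelial integrin subunit, rose 1.41-fold in kidney and fell 1.71-fold in lung. Their organ differences were 1.46 ± 0.15, 1.25 ± 0.14 and 1.27 ± 0.22, in that order, and all 3 kept their calls when any 1 array was left out.

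The reverse, lower in kidney and higher in lung, was seen in 22 genes. Melk, a kinase of dividing cells, read 992, 688, 1018, 988 and 763 in the control kidneys and 388, 514, 713, 565 and 620.5 in the deficient ones, a 1.58-fold fall in which 1 deficient kidney lay inside the control range. In lung it read 332, 341, 365, 306 and 361 on the control diet and 588, 656, 666, 591 and 679 under deficiency, a 1.83-fold rise without overlap. For Melk the organ difference was -1.53 ± 0.17 (adjusted p = 1.71e-06). Tgfbi, a matrix protein induced by TGF-beta, fell 1.27-fold in kidney and rose 1.43-fold in lung, from 1131 ± 111 to 1636 ± 281, with an organ difference of -0.86 ± 0.12 (adjusted p = 2.79e-05). Ggh, a lysosomal enzyme that trims folates, fell 1.60-fold in kidney and rose 1.17-fold in lung, with an organ difference of -0.91 ± 0.10 (adjusted p = 1.28e-06).

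Among the 26 genes that moved the same way by unequal amounts, Ros1, a receptor tyrosine kinase, fell 3.56-fold in kidney and 1.34-fold in lung, with an organ difference of -1.42 ± 0.18 (adjusted p = 1.33e-05). Pimreg, a regulator of mitotic exit, rose in both organs and more in lung, where it went from 192 ± 53.1 to 715 ± 128, a 3.55-fold rise. In kidney Pimreg went from 65.3 ± 3.68, below the 40th percentile of each array, to 143 ± 19.9 (SD, n = 5 each), and its organ difference was -0.87 ± 0.18 (adjusted p = 0.00328).

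The cell division genes mostly rose in both organs, with a lean towards kidney. Of 30 mitosis genes tested, 29 were higher in deficient kidneys and 28 in deficient lungs, with median differences of 0.87 and 0.77 beside 0.03 and 0.02 over all genes. The organ difference passed in 3 of the 30: Gtse1, described above, was positive, and Birc5 and Kif11 were negative. Of 31 DNA replication genes, 28 were higher in deficient kidneys and 26 in deficient lungs, with medians of 0.57 and 0.45, and 4 passed the organ difference. Both counts of organ differences are to be read beside the 7.67% of all genes, and 15.4% and 7.51% of all genes were higher in kidney and lung. The organ difference was positive in 23 of the 30 and 24 of the 31, with medians of 0.13 and 0.20 beside 0.02 over all genes. With quantile normalization over all arrays these list medians were 0.02 and 0.13. With same-numbered organs treated as 1 animal, 6 replication genes passed with a positive value and 1 with a negative one.

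Mki67, the proliferation antigen, illustrates the shared rise. It read 421, 405, 425, 477 and 465 in the control kidneys and 716, 1072, 1289, 933 and 1051 in the deficient ones, a 2.23-fold rise. In lung it read 731, 627, 681, 623 and 729 on the control diet and 1137, 1136, 1263, 967 and 1183 under deficiency, a 1.66-fold rise, and neither organ's groups overlapped. Its organ difference of 0.42, with a 95% interval of 0.13 to 0.72, missed the threshold (adjusted p = 0.0698) and passed when same-numbered organs were treated as 1 animal (adjusted p = 0.0406), though not with within-animal differences.

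Of the 4 replication genes that passed the organ difference, 3 rose more in kidney, and the 1 negative value was that of Ung, a uracil glycosylase (-0.27 ± 0.08, adjusted p = 0.0338), whose call was lost in 9 of the 20 omissions of 1 array at adjusted p-values up to 0.0670. With within-animal differences 2 of the 4 passed, since Ung (adjusted p = 0.0657) and Cdt1 (0.0582) were lost. Mcm6, a subunit of the replicative helicase, rose 2.03-fold in kidney and 1.29-fold in lung (organ difference 0.66 ± 0.15, adjusted p = 0.00528). Mcm3, another subunit, rose 1.83-fold in kidney, and its lung difference of 0.24 did not pass (organ difference 0.64 ± 0.16, adjusted p = 0.0145); the call was lost without deficient rats 3 and 4. Cdt1, which loads that helicase, rose 2.36-fold in kidney and 1.44-fold in lung (organ difference 0.71 ± 0.20, adjusted p = 0.0263). The call for Cdt1 was lost without deficient kidney 3 (adjusted p = 0.0553), deficient kidney 5 (0.0530) or control lung 2 (0.0534). Birc5, the mitotic protein survivin, went the other way, with a 1.35-fold rise in kidney and a 2.09-fold rise in lung (organ difference -0.63 ± 0.14, adjusted p = 0.00645; 0.0524 with within-animal differences).

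For genes with an uncalled organ difference, the interval gives what the arrays leave possible. That of Top2a, the topoisomerase of dividing cells, ran from -0.09 to 0.80, and that of Ccna2, the S-phase cyclin A2, from 0.02 to 0.99. Ezh2, a Polycomb methyltransferase, gave the narrow interval of -0.24 to 0.22 around 1.45-fold and 1.46-fold rises. The plot of organ differences of growth genes shows the intervals of 25 genes.

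**Figure D3:**
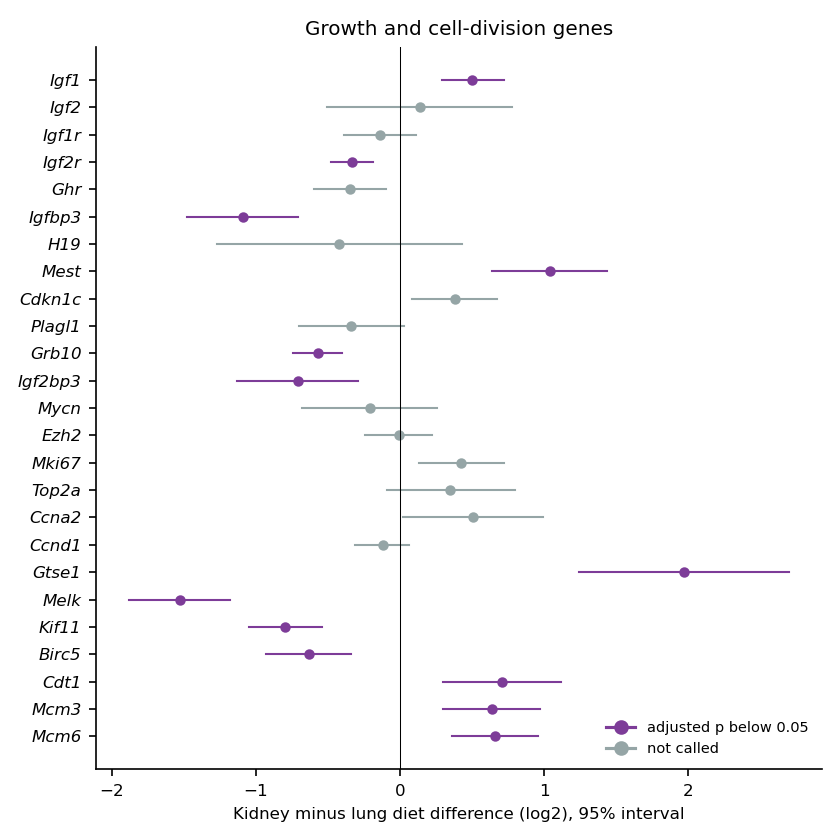
Organ difference (kidney diet difference minus lung diet difference, log2 scale) with its 95% interval for 25 growth genes, purple where it passed the test. Gtse1 and Mest lie to the right of 0, Igfbp3, Kif11 and Birc5 to the left, and the intervals of Ezh2, Top2a and Ccnd1 include 0.

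The growth hormone and insulin-like growth factor genes differed between the organs in 4 of 18 tested members (22.2%, beside 7.67% of all genes), 1 positive and 3 negative. Igf1, the growth factor itself, read 3221, 2791, 3481, 2888 and 2841 in the control lungs and 2206, 2122, 2329, 1807 and 2081 in the deficient ones, a 1.44-fold fall without overlap. The kidneys read 1045 ± 52.1 and 1033 ± 116 (SD, n = 5 each) and overlapped. The organ difference of Igf1 was 0.50 ± 0.11 (adjusted p = 0.00383), and 2 further probe sets of the gene gave 0.63 and 0.51.

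Igfbp3, the main carrier of that factor in plasma, fell 1.72-fold in kidney, from 2099.6 ± 321 to 1214 ± 202 without overlap, while the lung means of 657 and 815 did not pass, and its organ difference was -1.09 ± 0.19 (adjusted p = 4.40e-04). Igf2r, the receptor that clears Igf2, fell 1.14-fold in kidney, and its organ difference of -0.33 ± 0.07 passed (adjusted p = 0.00328; 0.0516 with within-animal differences). Its other probe set gave -0.31, which did not pass (adjusted p = 0.109). Igf2bp3, a fetal RNA-binding protein, gave the remaining call at -0.71, which was lost in 7 omissions at adjusted p-values up to 0.0599 and without deficient rats 3 and 4. The other probe set of Igf2bp3 gave -0.11 (adjusted p = 0.882), and the call was lost when both were averaged (-0.53, adjusted p = 0.106). Igf1r, the signalling receptor, rose 1.18-fold in kidney and 1.30-fold in lung with an organ difference of -0.14 that did not pass. Ghr, the growth hormone receptor, fell 1.40-fold in kidney, and its organ difference of -0.35 missed the threshold (adjusted p = 0.0757) and passed when same-numbered organs were treated as 1 animal (adjusted p = 0.0458) and with within-animal differences.

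Of 13 imprinted growth genes tested, 7 were higher and 3 lower in deficient kidneys, and 6 were higher in deficient lungs. The shares of all genes were 15.4%, 7.65% and 7.51%, in that order. The organ difference passed for Mest, Igf2r and Grb10, 23.1% of the list beside 7.67% of all genes. Grb10, an adaptor that restrains insulin signalling, fell 1.19-fold in kidney and rose 1.24-fold in lung (organ difference -0.57 ± 0.08, adjusted p = 6.02e-05). Its other probe sets gave -0.22 and -0.13, and the call was lost when the probe sets were averaged (-0.31, adjusted p = 0.162). H19, an imprinted non-coding RNA, rose 2.04-fold in kidney and 2.74-fold in lung, and its organ difference of -0.42 had an interval of -1.27 to 0.43. Igf2 read 169.6 ± 29.7 and 256 ± 80.9 in kidney and 292 ± 74.1 and 378 ± 51.4 in lung (SD, n = 5 each), and neither diet difference passed.

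Matrix genes that passed were mostly higher under deficiency. Of 42 tested, 28 were higher, 2 lower and 12 not called in deficient kidneys (medians of 0.44 for the list and 0.03 for all genes), where 15.4% of all genes were higher. In deficient lungs 19 were higher and 23 were not called (median 0.23), beside 7.51% of all genes higher. The organ difference passed in 8 (beside 7.67% of all genes), 6 positive and 2 negative, with a median of 0.20 beside 0.02 over all genes and positive values in 33 of 42. With each array centred on its median the calls were 4 positive and 4 negative, and without deficient rats 3 and 4 they were 2 and 2. With within-animal differences 5 passed.

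Col5a2, a fibrillar collagen chain, read 1078, 993, 1099.7, 1187 and 878 in the control kidneys and 1622, 1743, 1646, 1256 and 1676 in the deficient ones. It rose 1.51-fold in kidney without overlap and stood at 8065 ± 353 and 8612 ± 609.9 (SD, n = 5 each) in lung, where the diets overlapped. Its organ difference was 0.50 ± 0.11 (adjusted p = 0.00423). Loxl1, an enzyme that cross-links elastin, rose 1.54-fold in kidney (organ difference 0.52 ± 0.12, adjusted p = 0.00626; 0.0775 without deficient rats 3 and 4). By contrast Mfap2, a protein of elastic microfibrils, rose 1.77-fold in kidney and 1.76-fold in lung, and Col5a1, the partner chain of Col5a2, rose by 0.53 on the log2 scale in both. Nid1, which links basement membrane laminin and collagen, was with Tgfbi the other negative call, falling 1.18-fold in kidney and rising 1.14-fold in lung (organ difference -0.43 ± 0.08, adjusted p = 0.00208). Its other probe set gave -0.21 (adjusted p = 0.612), and averaging the probe sets ended the call of Nid1 (-0.32, adjusted p = 0.0599).

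Contractile genes of smooth muscle and pericytes passed in 10 of 14 members in kidney, all higher (71.4%, beside 15.4% of all genes), and in 1 in lung, Smtn, also higher (7.51% of all genes). The organ difference was positive in all 14 tested members and passed in 5 (35.7%, beside 4.75% of all genes with a positive call), with a median of 0.43. Without deficient rats 3 and 4 only 1 passed, without deficient rat 5 only 2, and with within-animal differences 3. Under either quantile normalization 2 passed. Rgs5, a G protein regulator of pericytes, read 314, 363, 375, 273 and 256 in the control kidneys and 489, 457, 491, 415 and 515 in the deficient ones. It rose 1.48-fold in kidney without overlap, the lung means of 759.7 and 661 did not differ past the threshold, and the organ difference was 0.76 ± 0.13 (adjusted p = 3.79e-04). Myl9, a myosin light chain, rose 1.49-fold in kidney (organ difference 0.47 ± 0.10, adjusted p = 0.00487; 0.0530 without deficient rats 3 and 4). Tpm2, a tropomyosin named here after its value was seen, rose by 0.46 on the log2 scale in kidney and gave an organ difference of 0.53. Myh11, the smooth muscle myosin, and Cspg4, the pericyte proteoglycan NG2, had organ differences of 0.59 and 0.66 and were less stable. The call for Myh11 was lost without control kidney 5, deficient kidney 2, control lung 2 or 3, or deficient lung 3 or 4, at adjusted p-values of 0.0511 to 0.0553, and when its probe sets were averaged (0.39, adjusted p = 0.212). That for Cspg4 was lost without control kidney 4 or 5, deficient kidney 4 or 5, control lung 3 or 4, or deficient lung 4, at adjusted p-values of 0.0506 to 0.0599, and with within-animal differences (0.107).

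The endothelial list showed that the fall of Vwf was not general. Of 19 endothelial genes tested, 7 were higher and 1, Vwf, was lower in deficient kidneys, beside 15.4% and 7.65% of all genes. In deficient lungs Ptprb and Edn1 were lower, beside 5.85% of all genes, and no other member passed. In lung 5 of the 19 had an unadjusted p below 0.05 in limma, as did 2795 of all 10150. The organ difference passed in 4 of the 19 (21.1%, beside 7.67% of all genes). Pecam1, an adhesion protein of all endothelium, read 754 ± 98.2 and 784 ± 57.6 in kidney and 2598 ± 316 and 2733 ± 431 in lung (SD, n = 5 each), with an organ difference of -0.01 and an interval of -0.31 to 0.30. Sox18, a transcription factor of vessel growth, rose 1.69-fold in kidney, from 370.2 ± 37.4 to 639 ± 74.0 without overlap (organ difference 0.54 ± 0.11, adjusted p = 0.00208). Edn1, the vasoconstrictor endothelin 1, fell 1.64-fold in lung, from 907 ± 164 to 547 ± 104 without overlap (organ difference 0.88 ± 0.24, adjusted p = 0.0217; 0.0706 with within-animal differences), and was dim in kidney. Nos3, the endothelial nitric oxide synthase, was the other member with a positive call (0.49 ± 0.15, adjusted p = 0.0391), which was lost in 11 of the 20 omissions of 1 array at adjusted p-values up to 0.0813 and with within-animal differences (0.115).

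More interferon-stimulated genes passed as lower in lung than in kidney, and 5 of them differed between the organs. Type I interferons switch on a set of antiviral genes, and the transcription factor Irf7 extends that response. Of 26 such genes tested, 19 passed in deficient lungs, all lower, with a median of -0.63, beside 5.85% of all genes lower in lung. In deficient kidneys 8 were lower, 1 was higher and 17 were not called, with a median of -0.27, beside 7.65% of all genes lower in kidney. The organ difference was positive in 25 of 26, with a median of 0.44, and passed in 5 (19.2%, against 4.75% of all genes with a positive call), of which 2 passed without deficient rats 3 and 4.

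Promoters of 3 of the 5 are shown because the organ difference was positive in 25 of the 26 genes of the list. The other 2, Usp18 and Isg15, are named only. The sequences are the 250 bases before the start of each gene, from RefSeq on the GRCr8 assembly, written 5′ to 3′ on the gene's strand, with a match to GAAANNGAAA, searched on both strands, in capitals. Irf7 lies at chr1:205800024-205800273 on the minus strand, Ifitm3 at chr1:205541759-205542008 on the minus strand and Irf9 at chr15:33065586-33065835 on the plus strand.
Irf7: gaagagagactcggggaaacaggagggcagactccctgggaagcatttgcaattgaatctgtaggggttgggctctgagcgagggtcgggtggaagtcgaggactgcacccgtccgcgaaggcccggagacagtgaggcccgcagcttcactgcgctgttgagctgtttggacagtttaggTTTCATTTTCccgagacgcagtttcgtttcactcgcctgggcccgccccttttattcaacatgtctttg
Ifitm3: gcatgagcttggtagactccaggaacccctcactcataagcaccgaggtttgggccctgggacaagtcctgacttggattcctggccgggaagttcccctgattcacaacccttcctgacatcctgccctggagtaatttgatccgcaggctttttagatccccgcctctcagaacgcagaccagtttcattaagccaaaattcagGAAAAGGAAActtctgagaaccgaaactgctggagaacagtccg
Irf9: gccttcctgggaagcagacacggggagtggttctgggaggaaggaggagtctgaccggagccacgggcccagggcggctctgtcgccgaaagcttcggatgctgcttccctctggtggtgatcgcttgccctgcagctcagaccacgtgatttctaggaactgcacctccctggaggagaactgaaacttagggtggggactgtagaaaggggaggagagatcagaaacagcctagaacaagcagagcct

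The motif was found in 13 of the 21 interferon genes that had a promoter in the table (61.9%), in 219 of 8494 genes tested (2.58%) and in 1140 of all 33469 promoters (3.41%). Irf7 held 1 match, 69 bases before its start on the opposite strand, and Ifitm3 held 1 at 44 bases before its start, while Irf9 held none in this window. The list was put together from interferon-stimulated genes, so its high share can follow from that choice alone. Any link of the motif to diet or organ was not tested. A match describes these letters and is not a site, and overlaps with other motifs were not examined.

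Usp18, which removes the Isg15 tag and damps interferon signalling, read 407, 456, 627, 504 and 763 in the control lungs and 148, 166, 159.5, 167 and 209.6 in the deficient ones. It fell 2.99-fold in lung without overlap, and the kidneys, at 237 ± 56.6 and 177 ± 25.5 (SD, n = 5 each), overlapped. For Usp18 the organ difference was 1.21 ± 0.24 (adjusted p = 0.00233) and passed in each omission of 1 array and without deficient rats 3 and 4.

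Irf7, whose promoter is printed above, read 910.0, 1011, 1309, 1076 and 1995 in the control lungs and 529, 559, 501, 552 and 586 in the deficient ones, a 2.19-fold fall without overlap. In kidney Irf7 read 511, 708, 971, 735 and 997 on the control diet and 462, 690.3, 511, 691 and 760.3 under deficiency, and these overlapped. Its organ difference was 0.82 ± 0.23 (adjusted p = 0.0282), and the call was lost without deficient rats 3 and 4 (adjusted p = 0.116) and in 3 of the 20 omissions of 1 array. Those were control kidney 1 (adjusted p = 0.0582), deficient kidney 2 (0.0516) and deficient kidney 5 (0.0558).

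Irf9 fell 1.61-fold in lung, from 884 ± 91.1 to 541 ± 45.4 without overlap, and read 246 ± 32.5 and 216 ± 36.2 in kidney (organ difference 0.51 ± 0.14, adjusted p = 0.0198; 0.0556 with within-animal differences). The other probe set of Irf9 gave 0.42, which did not pass (adjusted p = 0.103). Isg15, the ubiquitin-like tag itself, fell 2.88-fold in lung, from 1002 ± 188 to 336 ± 57.3, and its organ difference of 1.13 ± 0.35 (adjusted p = 0.0459) lost its call in 15 of the 20 omissions, with adjusted p-values up to 0.0831. Ifitm3, an antiviral membrane protein, rose 1.10-fold in kidney, and its lung difference of -0.10 did not pass. Its organ difference of 0.24 ± 0.07 (adjusted p = 0.0283) lost its call without control kidney 1 (adjusted p = 0.0582), deficient kidney 4 (0.0509), control lung 5 (0.0593) or deficient lung 5 (0.0521), without deficient rats 3 and 4 (0.150) and with within-animal differences (0.107). Mx1 and Ifit2, antiviral effectors outside the 5, passed in both organs, with kidney differences of -0.72 and -0.47 and lung differences of -1.26 and -0.95.

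**Figure D4:**
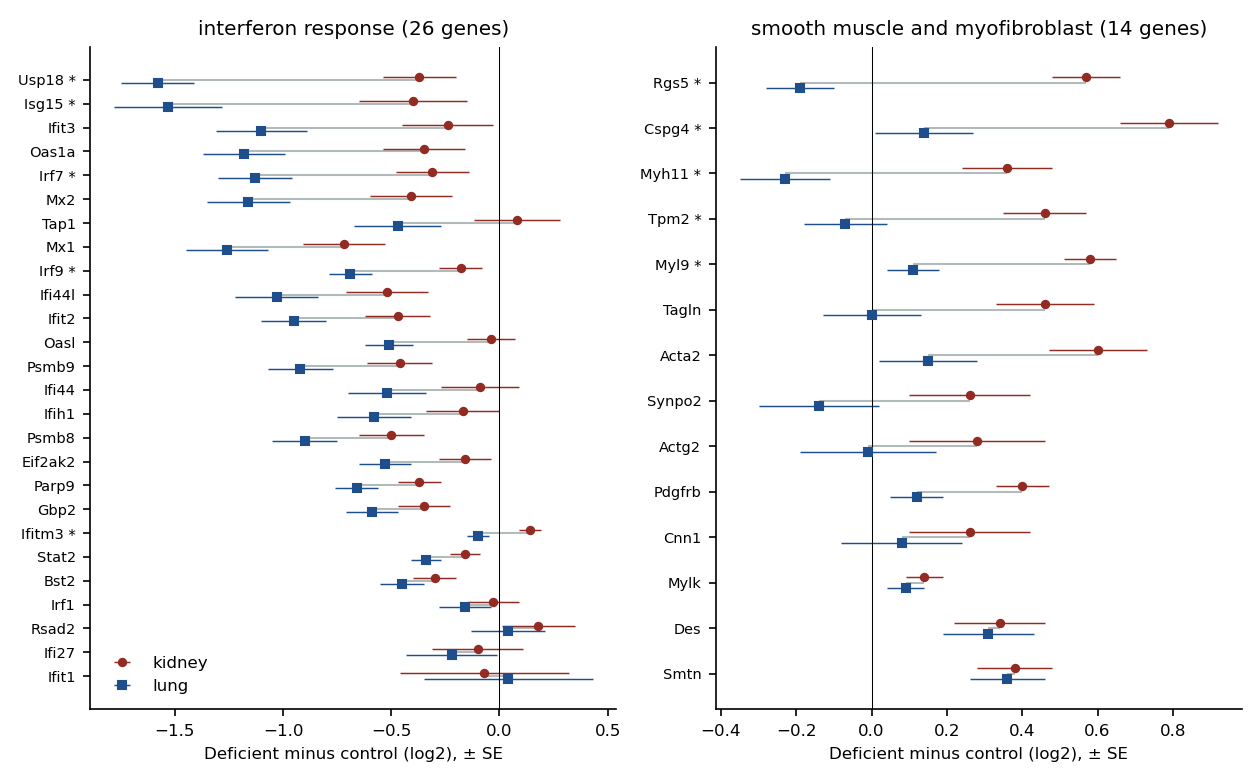
Diet difference (log2 scale, deficient minus control) with its SE in kidney and in lung for 26 interferon genes and 14 smooth muscle genes, asterisks marking a called organ difference. Lung values lie below kidney values for 25 of the 26 interferon genes, and kidney values lie above lung values for all 14 smooth muscle genes.

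Some markers of immune cells were lower in deficient lungs beside these genes. In lung, 12 of 17 T and NK cell genes bright enough there were lower under deficiency (median -0.68). The mean log2 value over the list's 20 genes on the array was 7.66 to 8.27 in control and 6.95 to 7.64 in deficient lungs. In kidney the same mean was 6.19 to 6.40 and 5.87 to 6.10, but only 5 of the list's genes were bright enough there. Lck, a kinase of T cells, fell 1.55-fold in lung, from 892 ± 135 to 573 ± 102 without overlap, with kidney means of 246 and 253 and an organ difference of 0.67 ± 0.16 (adjusted p = 0.0111); the call was lost without deficient rats 3 and 4. Of 11 mast cell, basophil and eosinophil genes bright enough in lung, 6 were lower. The macrophage list had 2 of 13 lower in lung, the neutrophil list 1 of 6 and the B and plasma cell list 3 of 7. None of the 5 lists had a member higher. These counts come from a fit of the lung arrays alone. In the main fit 5.85% of the genes tested in both organs were lower in lung and 7.51% higher. Of the 652 genes bright enough in lung only, 90 were lower and 40 higher. What immune cells contribute to the interferon genes was not tested.

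Pou2af1, a coactivator of B cells, fell 1.87-fold in lung, from 353 ± 88.6 to 176 ± 23.5, and read 56.0 ± 2.26 and 93.4 ± 10.4 in kidney, where only 2 of 10 arrays exceeded their 40th percentile (organ difference 1.50 ± 0.26, adjusted p = 4.85e-04). Mrc1, the mannose receptor of tissue macrophages, rose 1.65-fold in kidney, from 151 ± 37.0 to 256 ± 44.9, and fell 1.38-fold in lung, from 2515 ± 232 to 1819 ± 106 (organ difference 1.18 ± 0.16, adjusted p = 1.84e-05). Neither organ's groups overlapped for Mrc1. Of the 12 macrophage genes tested, 6 were lower in deficient kidneys, beside 7.65% of all genes. Among them were the complement genes C1qa, C1qb and C1qc with differences of -0.59, -0.54 and -0.52. Ctsk was with Mrc1 the other member to pass as higher in kidney, at 0.50, beside 15.4% of all genes. In lung Csf1r was the other member to pass as lower, at -0.31. Mrc1 was the only one of the 12 to pass the organ difference (8.33%, beside 7.67% of all genes).

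MHC class II genes, which present antigen to helper T cells, leaned the other way, with the larger fall in kidney. Of 8 tested, 5 were lower in deficient kidneys (median -1.08) and 4 in deficient lungs (median -0.49), beside 7.65% and 5.85% of all genes. The organ difference passed in 2 (25.0%, beside 7.67% of all genes). RT1-Da, a class II alpha chain, read 3495, 4074, 5115, 4691 and 4333 in the control kidneys and 2430.4, 1331, 1996, 1983 and 1467 in the deficient ones, a 2.38-fold fall without overlap. The lungs read 8008 ± 689 and 6033 ± 773 (SD, n = 5 each), and the organ difference was -0.84 ± 0.23 (adjusted p = 0.0223). Cd74, the invariant chain, fell 1.92-fold in kidney (organ difference -0.59 ± 0.18, adjusted p = 0.0412), and its call was lost in 13 of the 20 omissions of 1 array, with adjusted p-values up to 0.0793. Neither organ difference passed without deficient rats 3 and 4 or without deficient rat 5, and without the latter the list's medians were -0.69 in kidney and -0.44 in lung. Quantile normalization over all arrays or within organs also ended both calls, at adjusted p-values of 0.0711 and 0.0501 for RT1-Da and 0.139 and 0.118 for Cd74.

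Enzymes that process drugs and steroids differed between the organs in 9 of 29 tested members (31.0%, beside 7.67% of all genes), 2 positive and 7 negative. In deficient kidneys 10 of the 29 were lower and in deficient lungs 4, beside 7.65% and 5.85% of all genes. Without deficient rats 3 and 4 the calls were 3 positive and 2 negative. Ephx1, an epoxide hydrolase, read 4372, 4555, 4815, 4460.5 and 4614 in the control kidneys and 3450.1, 3091, 2979, 3267 and 3396 in the deficient ones. It fell 1.41-fold in kidney without overlap, its lung difference of 0.20 did not pass, and its organ difference was -0.69 ± 0.10 (adjusted p = 3.78e-05). Gstm1, a glutathione transferase, fell 1.81-fold in kidney, from 1021 ± 394 to 555 ± 223 with overlapping arrays, and its lung values of 1196 ± 145 and 2064 ± 336 did not overlap (organ difference -1.63 ± 0.39, adjusted p = 0.00992).

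Sgk1, a kinase that promotes sodium uptake and answers to corticosteroids, fell 1.69-fold in kidney, from 8302 ± 1673 to 4850.1 ± 789, with lung means of 4121 and 4867 (organ difference -1.0 ± 0.17, adjusted p = 4.34e-04). Ace, which makes angiotensin II, rose 1.53-fold in kidney, from 204 ± 57.7 to 309 ± 22.3, and its lung means of 4725 and 4157 did not differ past the threshold. The organ difference of Ace was 0.79 ± 0.20 (adjusted p = 0.0153) and was lost without deficient rats 3 and 4. Agt, the precursor angiotensinogen, read 376 ± 68.6 in control kidneys and 72.0 ± 8.42 in deficient ones, all of which were below the 40th percentile. Its organ difference of -1.98 ± 0.58 (adjusted p = 0.0332) was lost without control kidney 1 (adjusted p = 0.0541), control kidney 5 (0.0579), deficient kidney 2 (0.0530), control lung 2 (0.0530) or control lung 5 (0.0596). Scnn1b and Scnn1g, subunits of the epithelial sodium channel, gave organ differences of -0.04 and -0.03.

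Of 20 glucocorticoid response genes tested, 9 were lower and 1 higher in deficient lungs (median -0.36), and 4 were lower in deficient kidneys (median -0.15). Over all genes 5.85% were lower and 7.51% higher in lung, and 7.65% were lower in kidney. The organ difference passed for Cebpd and Tfcp2l1, both positive, and for Sgk1 and Sult1a1, both negative, 4 of the 20 beside 7.67% of all genes. The call for Sult1a1, a sulfotransferase with an organ difference of -0.75, was lost without control kidney 2, 3 or 4, deficient kidney 3, control lung 2 or deficient lung 4, at adjusted p-values of 0.0525 to 0.0648, and with within-animal differences (0.0970). Tfcp2l1, a transcription factor of ductal epithelia, fell 1.68-fold in lung, from 657 ± 58.3 to 384 ± 23.8 without overlap (organ difference 0.68 ± 0.13, adjusted p = 0.00218); the call was lost without deficient rats 3 and 4. Per1 and Dusp1, also induced by glucocorticoids, fell by 0.90 and 0.70 on the log2 scale in lung, and their organ differences of 0.51 and 0.47 did not pass.

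Genes tied to the missing nutrient were counted against the same background. Of 25 genes of the amino acid deprivation response, 0 passed the organ difference in limma, beside 7.67% of all genes. For that difference 5 had an unadjusted p below 0.05, as did 2178 of all 10150. With within-animal differences 1 of the 25 passed it. The diet difference passed in 3 of the 25 in kidney and 4 in lung, beside 23.1% and 13.4% of all genes. Asns and Atf4, a target and the central factor of that response, gave organ differences of 0.13 and -0.06. Of 16 genes of tryptophan and NAD metabolism, Afmid alone passed the organ difference, a share of 6.25% that is near the background. The diet difference passed in 5 of the 16 in kidney and 3 in lung, beside the same 23.1% and 13.4%. Afmid, which turns formylkynurenine into kynurenine, read 1702, 1602, 1996, 1776 and 1770.3 in the control kidneys and 976, 1058, 881, 1253 and 1151 in the deficient ones, a 1.66-fold fall without overlap. In lung it read 115 ± 16.5 and 117 ± 14.2 (SD, n = 5 each), near the dim end, and the organ difference was -0.76 ± 0.13 (adjusted p = 4.94e-04). Maob, which oxidises amines, was lower in both organs, by 0.44 on the log2 scale in kidney and 0.26 in lung. Of 19 circadian clock genes, 0 passed the organ difference in limma and 2 had an unadjusted p below 0.05, while 3 passed with within-animal differences. Bmal1 gave an organ difference of 0.01. The clock genes' diet difference passed in 3 of the 19 in kidney (15.8%, beside 23.1%) and in 7 in lung (36.8%, beside 13.4%). The list medians are drawn for both organs.

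**Figure D5:**
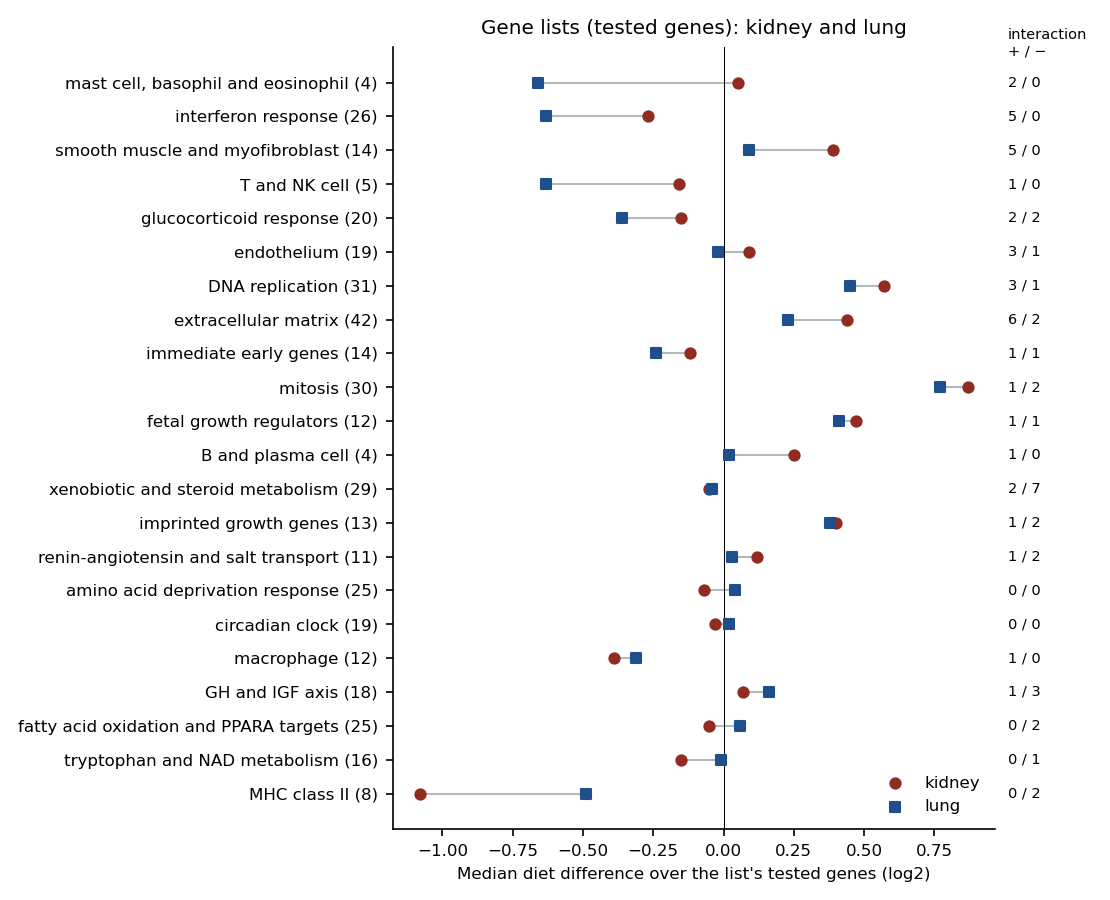
Median diet difference (log2 scale, deficient minus control) of the tested genes of 22 lists in kidney (circles) and in lung (squares), with the counts of positive and negative called organ differences at the right. Mitosis genes lie far to the right in both organs, interferon genes lie further left in lung and MHC class II genes further left in kidney.

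Genes bright in 1 organ alone could not be tested for the organ difference, and they are described within their organ. Of 760 genes that passed the filter in kidney only, 84 were higher and 119 lower under deficiency (26.7%), and of 652 in lung only, 40 were higher and 90 lower (19.9%). Dhrs7l1, a short-chain dehydrogenase, read 6339, 8014, 8208, 9588 and 6768 in the control kidneys and 121, 42.5, 13.8, 4.63 and 8.18 in the deficient ones, a difference of -7.55 ± 0.39 (SE, adjusted p = 7.16e-08). It fell from among the brighter genes to the dim end of the array and never exceeded 21.9 in lung. Slco1a1, an organic anion transporter, read 2522, 3162, 3025, 3548 and 3284 in the control kidneys and 559, 216, 52.0, 43.7 and 97.8 in the deficient ones, a difference of -4.43 ± 0.48. Ptgds, the prostaglandin D2 synthase, fell from 1618 to 362 with all deficient kidneys below all controls (difference -2.14 ± 0.20, adjusted p = 1.64e-05). Slc22a13, a urate and nicotinate transporter, rose from a mean of 309.9 to 832 (difference 1.61 ± 0.35, adjusted p = 0.00441).

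In lung, Avil, an actin-binding protein, read 368, 307, 463, 714 and 817 in the controls and 106, 139, 155, 152 and 211 under deficiency, a difference of -1.64 ± 0.23 (adjusted p = 3.24e-04). Mcpt10, a mast cell protease, read 246, 445, 485, 384 and 189 in the controls and 108, 69.0, 39.4, 191 and 156 under deficiency, a difference of -1.58 ± 0.33 (adjusted p = 0.00625), with deficient lung 4 inside the control range. Cd69, an activation marker of lymphocytes, fell from a mean of 208 to 74.7 (difference -1.47 ± 0.32, adjusted p = 0.00714). On the rising side Scgb1c1, a secretoglobin, read 31.1, 77.7, 111, 75.7 and 7.25 in the controls and 171, 292, 172, 228 and 177 under deficiency (difference 1.75 ± 0.37, adjusted p = 0.00668), while 1 control kidney read 693 and all other kidneys were dim. Dlk1, an imprinted signalling protein of growing tissue, went from a mean of 115 to 226 (difference 0.85 ± 0.22, adjusted p = 0.0210).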

How the data were processed

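Whole-organ RNA, 2 ug per array, was labelled and hybridised to 1-colour expression arrays. The deposited values are intensities made by the authors with MAS5, per the submitters' processing notes (version not given in the sources used here), with a trimmed mean of 500.116 to 500.165 on each array. Precision is limited by the 5 arrays per group. The title and sample labels name rats, and the design text names mice. Control probe sets (57) were left out. Of 31099 probe sets, 20826 have 1 gene in the platform annotation, 436 have several and 9780 have none, and only those with 1 gene were used.

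Here log2(signal + 16) was taken, the probe set with the highest mean kept per gene, and genes kept that exceeded their array's 40th percentile on at least 5 kidney and 5 lung arrays. limma 3.58.1 in R 4.3.3 (lmFit, eBayes) was fitted to all 30 arrays in 6 groups, with Benjamini-Hochberg adjustment over 10150 genes, and was tested on simulated data. Folds are given where both means and most arrays exceeded that percentile. One-organ genes were fitted on that organ's 15 arrays. Named genes were the 10 largest organ differences of each sign with non-overlapping arrays in an organ, the 5 largest of each sign per pattern, up to 4 called and 2 uncalled members per list, a panel of 24 genes, and the 5 largest rises and falls of one-organ genes. Members and lists were chosen with earlier results of these data known.

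The labels do not say whether same-numbered kidneys and lungs came from 1 rat. Their deviations from the group means correlated at over 0.1 in all 10 pairs at 5 wk and in 14 of 15 pairs in all (lowest 0.0105, highest 0.327, other-number pairs -0.171 to 0.206). The numbers were therefore taken to pair the samples, but only in the alternative fits that name animals or replicate numbers. The main fit had no term for pairing and treated same-numbered organs as independent. Nothing states that samples of a group were raised apart, so p-values measure the spread between these arrays. Alternatives changed the pseudocount, filter, normalization, probe set rule, arrays fitted, variance model and pairing, and left arrays out.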

Additional observations from a re-analysis of the deposited data

Results flagged for a closer look

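The difference between the organs in their response to diet passed the test in 84 of the named genes, and these values, kidney minus lung on the log2 scale, are listed by pattern. Negative values among genes whose diet difference passed in kidney alone were -3.27 for Tff3, -2.75 for Gtpbp4, -2.32 for Urah, -2.28 for Akr1c13, -2.00 for Tnfrsf11b, -1.98 for Agt, -1.87 for Prep, -1.74 for Ptprn, -1.65 for Mbl1, -1.63 for Gstm1, -1.50 for Vwf and -1.40 for Ccn2. Negative values among genes whose diet difference passed in kidney alone also were -1.09 for Igfbp3, -1.0 for Sgk1, -0.84 for RT1-Da, -0.76 for Afmid, -0.75 for Sult1a1, -0.69 for Ephx1, -0.59 for Cd74, -0.33 for Igf2r and -0.22 for Hadhb. Positive values among genes whose diet difference passed in kidney alone were 1.97 for Gtse1, 1.24 for Angpt2, 1.23 for Gsta3, 1.04 for Mest, 1.02 for Postn, 0.79 for Ace, 0.76 for Rgs5, 0.66 for Cspg4, 0.64 for Mcm3, 0.59 for Myh11, 0.54 for Sox18 and 0.52 for Loxl1. Positive values among genes whose diet difference passed in kidney alone also were 0.50 for Col5a2, 0.49 for Nos3, 0.47 for Myl9, 0.46 for Tet1 and 0.24 for Ifitm3. Positive values among genes whose diet difference passed in lung alone were 1.62 for Cebpd, 1.27 for Cpa3, 1.21 for Usp18, 1.20 for B4galnt1, 1.13 for Isg15, 0.88 for Edn1, 0.85 for Fmo1, 0.82 for Irf7, 0.68 for Tfcp2l1, 0.67 for Lck, 0.54 for Gata2 and 0.51 for Irf9. Positive values among genes whose diet difference passed in lung alone also were 0.50 for Igf1 and 0.35 for Klf6. Positive values among genes that passed in opposite directions in the 2 organs were 1.50 for Pou2af1, 1.46 for Adgrv1, 1.33 for Slc39a4, 1.27 for Itgb6, 1.25 for Atp2a3, 1.24 for Capg and 1.18 for Mrc1. Negative values among genes whose diet difference passed in lung alone were -1.22 for Vegfb, -1.06 for Slc6a17, -0.95 for Adtrp, -0.89 for Acot1, -0.82 for Emg1, -0.80 for Kif11, -0.71 for Igf2bp3 and -0.27 for Ung. Negative values among genes that passed in opposite directions in the 2 organs were -1.53 for Melk, -1.29 for Tsku, -1.04 for Abcg2, -0.91 for Ggh, -0.86 for Tgfbi, -0.57 for Grb10 and -0.43 for Nid1. Negative values among genes that passed in the same direction in both organs were -1.42 for Ros1, -0.87 for Pimreg, -0.70 for Tro, -0.64 for Hspbap1 and -0.63 for Birc5. Positive values among genes that passed in the same direction in both organs were 0.71 for Cdt1, 0.66 for Mcm6, 0.59 for Zfp367, 0.58 for Irgm2 and 0.55 for Depdc1.

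A single array lay far from the other 4 of its group, by Dixon's test at the 95% level, in 44 of 696 groups of gene or list values (6.32%), and chance flags about 1 in 20 groups. The values are on the scale of log2(signal + 16). Among the control kidneys the low values were 8.61 for Tnfrsf11b on array 1, 7.84 for Mbl1 on array 5, 8.93 for Itgb6 on array 3, 11.78 for Plvap on array 3, 5.33 for Tpsb2 on array 1, 6.22 for Gal on array 3, 6.91 for Apoc2 on array 5, 6.92 for fetal growth regulators (list mean) on array 5 and 10.04 for xenobiotic and steroid metabolism (list mean) on array 1. Among the control kidneys the high values were 9.22 for Angpt2 on array 1, 8.52 for Cdc45 on array 4, 8.80 for Myh11 on array 3 and 7.06 for Mycn on array 2. Among the deficient kidneys the low values were 9.85 for Gsta3 on array 1, 7.44 for Pold1 on array 1, 10.31 for Col5a2 on array 4, 12.51 for Kyat1 on array 2, 6.60 for Gc on array 5 and 8.35 for MHC class II (list mean) on array 5. Among the deficient kidneys the high values were 10.07 for Adtrp on array 4. Among the control lungs the low values were 7.73 for Pou2af1 on array 1, 8.69 for Kyat1 on array 1, 12.10 for Ccnd1 on array 1 and 10.70 for MHC class II (list mean) on array 2. Among the control lungs the high values were 8.28 for Gtse1 on array 5, 8.72 for Cpt1b on array 3, 7.67 for Dlk1 on array 1, 8.88 for xenobiotic and steroid metabolism (list mean) on array 1, 8.53 for renin-angiotensin and salt transport (list mean) on array 3 and 9.27 for cardiac muscle (list mean) on array 3. Among the deficient lungs the low values were 5.41 for Ptprn on array 4, 7.08 for Tsku on array 2, 9.07 for Cdc45 on array 1, 7.51 for Tet1 on array 3, 6.77 for RT1-Ba on array 5, 8.05 for Mycn on array 5 and 9.52 for MHC class II (list mean) on array 5. Among the deficient lungs the high values were 9.30 for Urah on array 3, 7.82 for Mbl1 on array 3, 8.81 for Itgb6 on array 5, 9.16 for Emg1 on array 5, 8.92 for Tpsb2 on array 5, 8.41 for skeletal muscle (list mean) on array 4 and 9.24 for liver (list mean) on array 3. Of these arrays, deficient lung 5 was flagged 6 times and control lung 1 was flagged 5 times. In deficient lung 5 RT1-Ba, a class II chain, read 6.77 against 9.84 to 10.60 in the other 4, and the mast cell tryptase Tpsb2 read 8.92 against 7.23 to 7.61.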

How the results depend on the processing

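No called organ difference of a named gene changed sign under any alternative tried. The count of 779 organ differences became 585 with the 5 wk arrays alone, 652 and 672 with quantile normalization over all arrays and within organs, 659 with probe sets averaged, 769 with median centring, 779 with no filter (of which 658 were shared) and 827 with trended robust variance. Positive calls were 61.9% of all, and 34.9% with median centring. With deficient rats 3 and 4 left out, an alternative chosen after seeing the data, 368 organ differences passed, of which 334 were shared, with 892 diet differences in lung, and the patterns fell to 224 in kidney alone, 95 in lung alone and 24 opposite. Without deficient rat 5, also chosen after seeing the data, 678 passed. Both of these fits had fewer deficient arrays and so a weaker test. The opposite pattern held 39 genes with the 5 wk arrays alone and 39 with no filter. Leaving out each of the 20 arrays in turn gave 643 to 835 organ differences, 1949 to 2351 kidney and 1018 to 1386 lung diet differences, and 363 to 490 genes in kidney alone, 149 to 205 in lung alone and 38 to 60 opposite. Lowest for the opposite pattern was the fit without control lung 4. Of 84 named calls, 66 were kept in every such omission, and 56 without deficient rats 3 and 4, while 11 were lost under either quantile normalization. With the filter on the 5 wk arrays alone, 76 of the 84 were tested and 0 of those were lost. The genes that failed that filter were Gtse1, Pou2af1, Edn1 and Igf2bp3, dim in kidney, and Slc6a17, Acot1, Abcg2 and Ptprn, dim in lung. The causes were not tested.

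With same-numbered organs as 1 animal, a replicate block, 1061 organ differences passed, including all 779, and apart from Ghr and Mki67 no named call changed. The replicate number as an additive block gave 787 and lost 4 of the 84 (Isg15, Depdc1, Nos3 and Cd74). Within-animal differences gave 585 and lost 15, namely Postn, Acot1, Tro, Birc5, Cdt1, Depdc1, Ung, Igf2r, Cspg4, Edn1, Nos3, Irf9, Ifitm3, Sult1a1 and Hadhb, at adjusted p-values of 0.0516 to 0.115, and gained Ghr. Signal over background limits genes dim in 1 organ, such as Gtse1 in control kidneys and Urah in deficient ones, for which no fold is given.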

Other observations

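Cell type lists outside the main results gave a few further organ differences, named here after their values were seen. Of 6 podocyte genes tested in both organs, Ptpro and Synpo passed with organ differences of 0.84 and 0.44 (33.3%, beside 7.67% of all genes). In both the diet difference lay in lung, at -0.67 and -0.33. In a fit of the kidney arrays alone, 3 of 8 podocyte genes were higher and 0 lower under deficiency, beside 15.4% and 7.65% of all genes in the main fit. The mean log2 value of the 9 podocyte genes on the array was 9.14 to 9.47 in control and 9.52 to 9.64 in deficient kidneys. Of 8 alveolar type 1 genes Emp2 and Gprc5a passed at 0.46 and 0.45 (25.0%). Of 7 alveolar type 2 genes Lpcat1 and Muc1 passed at 0.58 and 0.31 (28.6%). Both shares are to be read beside the 7.67% of all genes. The diet difference in lung passed in 0 of the 8 type 1 and 0 of the 7 type 2 genes tested, beside 13.4% of all genes. In kidney it passed in 3 and 4 of them, beside 23.1% of all genes. In fatty acid oxidation Acot1 and Hadhb, a thioesterase and a subunit of the mitochondrial trifunctional protein, passed with negative values of -0.89 and -0.22, and each lost its call in 12 of the 20 omissions of 1 array. Of 25 mitochondrial respiration genes 0 passed the organ difference in limma, beside 7.67% of all genes. For it 4 had an unadjusted p below 0.05, as did 2178 of all 10150. Their diet difference passed in 3 in kidney and 2 in lung, beside 23.1% and 13.4% of all genes.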
